A study of Mus musculus with 10 samples.

Results

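The genes examined here encode serotonin receptors. The 9 members are Htr1a, Htr1b, Htr1f, Htr2a, Htr2c, Htr3a, Htr4, Htr5a and Htr7, a list of named genes chosen out of the 14 serotonin receptor genes (symbols starting with Htr and a digit) among the 30406 genes shared by all libraries. Their messenger RNA was measured by droplet single-cell RNA sequencing. The cells came from punches of the medial prefrontal cortex, taken 1 day after the last tube test from C57BL/6N males that were over 2 months old. In that test mice meet in a narrow tube and the loser backs out, which ranks the cage mates. There were 5 libraries of rank 1 (dominant) and 5 of rank 4 (subordinate) animals. Each pooled 2 to 3 mice, and no genetic change or drug is named in the labels. All mice went through the same papain digestion at 37 °C for 60 min.

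Serotonin reaches the prefrontal cortex from neurons of the raphe nuclei in the brain stem. Most of its receptors are G protein-coupled: Htr1a, Htr1b, Htr1f and Htr5a act through Gi/o proteins, which lower cyclic AMP and can open potassium channels. Htr2a and Htr2c act through Gq proteins and phospholipase C, and Htr4 and Htr7 through Gs proteins, which raise cyclic AMP. Htr3a is the exception, a subunit of a ligand-gated cation channel that is a textbook marker of a large family of cortical interneurons.

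A library held 1838 to 15826 barcodes and 4442750 to 29278466 unique molecular identifiers (UMIs, 1 per captured RNA molecule). After filters, 46285 cells were kept, with a median of 1328 to 2662.5 UMIs per cell in a library, and 44763 of them fell in clusters with a class name. Between any 2 libraries at most 104 barcodes were the same (1.70% of the smaller library). Cell types were rebuilt here from clusters and fixed marker genes, so each name means "like" that type, and all Htr genes were left out of the clustering and the naming. Excitatory neurons (Slc17a7, Neurod6) were 16608 cells and inhibitory neurons (Gad1, Gad2) 2228 cells. A pair of excitatory groups reached no type name and is called by leading genes: the Rorb-led clusters (2615 cells) and the Oprk1-led clusters (1808 cells), grouped after the clusters, but not the receptor levels, were seen. The Sncg-like interneurons were 121 cells, whose leading genes also included Vip. Levels are given as CPM, a gene's UMIs divided by all UMIs of the cell type and scaled to a fixed depth, either pooled over libraries with an exact 95% Poisson interval or as the mean over libraries with at least 20 cells of the type. Intervals cover counting error only.

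Captured UMIs of each receptor were counted by class, and these counts follow how much RNA of a class was captured: excitatory neurons held 56205378 UMIs of all genes and inhibitory neurons 7348422. Of the receptor UMIs in kept cells, excitatory neurons held 83.4% for Htr1b (1765 UMIs), 82.2% for Htr1f (2140 UMIs), 79.6% for Htr4 (113 UMIs), 74.2% for Htr1a (677 UMIs) and 74.1% for Htr5a (591 UMIs). The share was 67.4% for Htr2a (1671 UMIs), 66.0% for Htr2c (1955 UMIs) and 47.2% for Htr7 (229 UMIs). Per UMI of the class, however, Htr2c stood at 57.2 CPM in inhibitory and 23.0 CPM in excitatory neurons, Htr2a at 41.6 and 20.03 CPM and Htr7 at 11.02 and 1.92 CPM, while Htr1b was higher in excitatory neurons (26.2 against 10.1 CPM). Inhibitory neurons held 12.1% of the Htr1a and 11.5% of the Htr5a UMIs. Given the UMIs of all genes in each class, neither gene was higher per UMI in excitatory neurons. Htr3a lay mostly in inhibitory neurons, with 74.3% of its 576 UMIs in inhibitory neurons and 6.42% in excitatory neurons. Single groups carried much of some genes: L6 CT-like neurons were 8.42% of kept cells and held 49.8% of the Htr1f UMIs, L5/6 NP-like neurons were 1.86% of cells and held 38.1% of the Htr2c UMIs, and Sncg-like interneurons were 0.261% of cells and held 38.0% of the Htr3a UMIs.

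**Figure D1:**
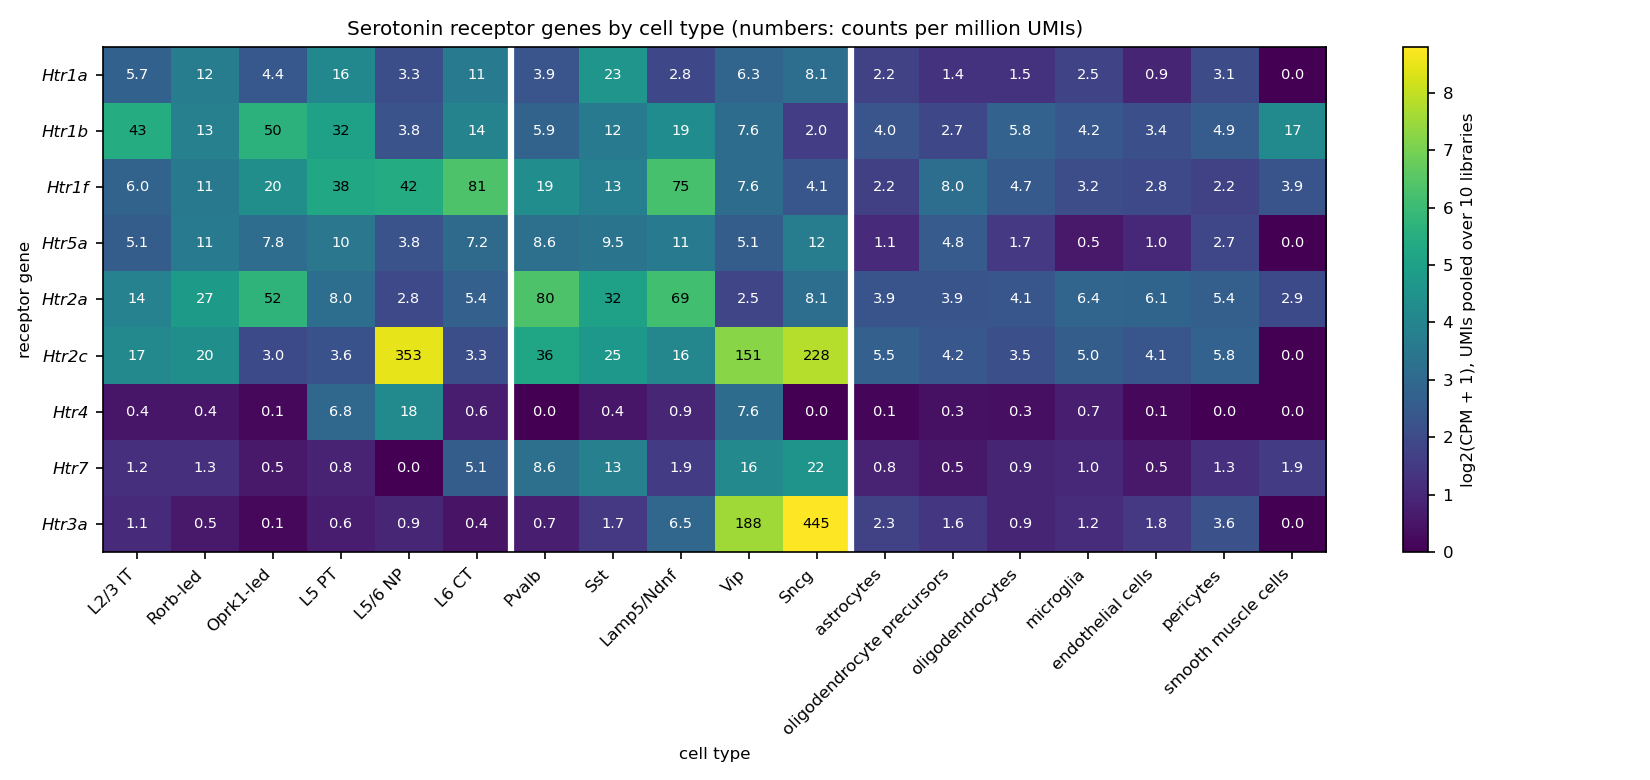
Level of the 9 receptor genes (rows) in 18 cell types (columns), as CPM over the pooled UMIs of 10 libraries; the colour is log2(CPM + 1) and the printed numbers are CPM. Htr2c stands out in the L5/6 NP-like column (353 CPM), Htr3a in the Sncg-like and Vip-like columns (445 and 188 CPM) and Htr1f in the L6 CT-like column (80.5 CPM).

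Among the Gq-coupled receptors, Htr2c (X chromosome, 146962513 to 147197277, plus strand, GRCm38) had its highest level in L5/6 NP-like neurons, the near-projecting cells of the deep layers. Pooled, they held 353 CPM (95% interval 328 to 379). The libraries ranged from 195 to 447 CPM with a median of 337 and a mean of 329.8 ± 94.25 (SD, n = 8). In rank 1 the values were 195, 304, 437 and 447 CPM and in rank 4 they were 206, 319, 376 and 355 CPM, so the ranks overlapped. Inhibitory neurons held the next levels, 228 CPM pooled in Sncg-like cells (95% interval 188 to 274) and 151 CPM in Vip-like cells (mean 163 ± 70.9, SD, n = 5). Pvalb-like cells held 35.5 CPM and Sst-like cells 25.1 CPM. Other excitatory groups held less: 19.7 CPM in Rorb-led and 16.7 CPM in L2/3 IT-like cells. Of the 7 non-neuronal types with at least 500 cells, pericytes were highest when pooled (5.80 CPM), while smooth muscle cells were at 0. By the mean over libraries microglia held 4.66 CPM, astrocytes 4.26 CPM and pericytes 3.17 CPM, and the first of these means leaned on 1 library at 18.2 CPM.

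Htr2a (chromosome 14, 74640840 to 74709494, plus strand), the receptor through which classic hallucinogens act, had its highest levels elsewhere. Pvalb-like interneurons held 80.2 CPM pooled (95% interval 66.6 to 95.8), Lamp5/Ndnf-like interneurons 69.0 CPM (54.2 to 86.7) and Oprk1-led excitatory neurons 52.5 CPM (47.5 to 57.9). In Pvalb-like cells the libraries gave 0, 80.99, 94.3, 98.1 and 111 CPM (mean 76.8 ± 44.2, SD, n = 5). The library at 0 was rank 1 replicate 1, with 29 cells, and the other 4 lay close together. It was also the only one of the 5 with files of software version 3.1.0, the others being 4.0.0. With at least 5 cells per library Lamp5/Ndnf-like cells came first, at 76.8 against 65.1 CPM, and were higher in 4 of 9 libraries. Oprk1-led cells ranged from 11.3 to 74.7 CPM with a median of 37.2 (mean 40.3 ± 21.2, SD, n = 10). Sst-like cells followed with 31.5 CPM and Rorb-led cells with 26.6 CPM, while L5 PT-like cells held 8.04 CPM. In microglia the level was 6.36 CPM, the highest of the large non-neuronal types. Htr2a and Htr2c thus peaked in different types.

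Among the Gi/o-coupled receptors, Htr1f (chromosome 16, 64924729 to 65105854, minus strand), a target of migraine drugs, had its highest pooled level in L6 CT-like neurons, which project to the thalamus. They held 80.5 CPM pooled (95% interval 75.8 to 85.5), and the libraries ranged from 50.01 to 94.8 CPM with a median of 79.2 (mean 76.8 ± 17.0, SD, n = 8). The replicate 2 libraries of both ranks had 11 and 12 such cells with no Htr1f count and did not enter that mean. Lamp5/Ndnf-like interneurons lay close, with 74.6 CPM pooled (59.2 to 92.9) and libraries at 31.5, 59.1, 70.9, 74.4 and 117.3 CPM. With at least 5 cells per library, which lets the 2 libraries at 0 in, the means were 61.8 CPM in Lamp5/Ndnf-like and 61.5 CPM in L6 CT-like cells, so which of the pair came first turned with that choice. Lower levels were found in L5/6 NP-like (41.7 CPM), L5 PT-like (38.1 CPM) and Oprk1-led cells (19.6 CPM). In L2/3 IT-like cells the level was 5.98 CPM, below the 8.05 CPM of oligodendrocyte precursors.

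Htr1b (chromosome 9, 81628291 to 81633828, minus strand), known as a receptor on axon terminals, had an upper-layer and Oprk1-led pattern. Oprk1-led cells held 49.5 CPM pooled (44.7 to 54.7), L2/3 IT-like cells 43.1 CPM (39.4 to 47.1) and L5 PT-like cells 31.97 CPM (27.1 to 37.5). By the mean over 10 libraries L2/3 IT-like cells came first, with 43.4 ± 16.7 CPM (SD, range 22.7 to 82.7) against 39.3 ± 21.6 in Oprk1-led cells, and they were higher in 6 of 10 libraries. L5/6 NP-like cells held 3.79 CPM. Smooth muscle cells of the vessel wall, where Htr1b is known to act in constriction, held 17.4 CPM (10.3 to 27.5) from 18 counts, spread over 9 of 10 libraries, while Htr1a, Htr2c, Htr3a, Htr4 and Htr5a had no count there. Htr1b overlaps D430036J16Rik on the other strand, and how strand was counted is not given in the sources used here, so reads of the 2 genes may not be told apart. D430036J16Rik was counted as a gene of its own, with 36 to 79 counts per library in excitatory neurons.

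Htr1a (chromosome 13, 105443639 to 105448122, plus strand), known as an autoreceptor of serotonin neurons and an inhibitory receptor of cortical neurons, was spread more evenly. Sst-like interneurons held 23.3 CPM pooled (17.5 to 30.4, mean over libraries 23.9 ± 14.1, SD, n = 8), L5 PT-like cells 16.3 CPM (16.9 ± 5.88, n = 10), Rorb-led cells 12.2 CPM (13.4 ± 3.28, n = 10) and L6 CT-like cells 11.04 CPM (12.5 ± 4.18, n = 8). Htr5a (chromosome 5, 27842149 to 27855088, plus strand) had no clear peak: pooled levels were 12.2 CPM in Sncg-like (6 counts), 11.3 in Rorb-led, 11.19 in Lamp5/Ndnf-like and 10.2 in L5 PT-like cells, with intervals that overlap. Oligodendrocyte precursors held 4.83 CPM of Htr5a, the highest of the 7 large non-neuronal types.

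The Gs-coupled receptors were sparse. Htr7 (chromosome 19, 35958734 to 36057507, minus strand) reached 22.4 CPM in Sncg-like cells (11 counts, 95% interval 11.17 to 40.02), 16.5 CPM in Vip-like cells (13 counts) and 13.4 CPM in Sst-like cells (31 counts, mean over libraries 12.9 ± 5.38, SD, n = 8). Among excitatory types it stood at 5.07 CPM in L6 CT-like cells (67 counts). Htr4 had 113 UMIs in all kept cells. Of these, 37 were in L5/6 NP-like neurons (17.5 CPM, 12.4 to 24.2) and 32 in L5 PT-like neurons (6.78 CPM, 4.63 to 9.56). Vip-like cells had 6 Htr4 counts, which gives 7.61 CPM with an interval of 2.79 to 16.6.

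Htr3a (chromosome 9, 48899213 to 48911099, minus strand) was highest in a pair of interneuron groups. Sncg-like cells held 445 CPM pooled (388 to 508) and Vip-like cells 188 CPM (159 to 221). Among the other named neuron types Lamp5/Ndnf-like cells were highest at 6.53 CPM (7 counts), beside 3.57 CPM in pericytes. Its values by library are given with the file versions further on. In the libraries with at least 5 cells of both groups, Sncg-like cells were higher than Vip-like cells in 9 of 9, by 1.34 ± 0.816 on the log2 scale (SD). The exact sign-flip p of 0.00391 is the smallest that 9 libraries allow, and by itself it cannot pass after adjustment over 189 pairs (0.591).

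**Figure D2:**
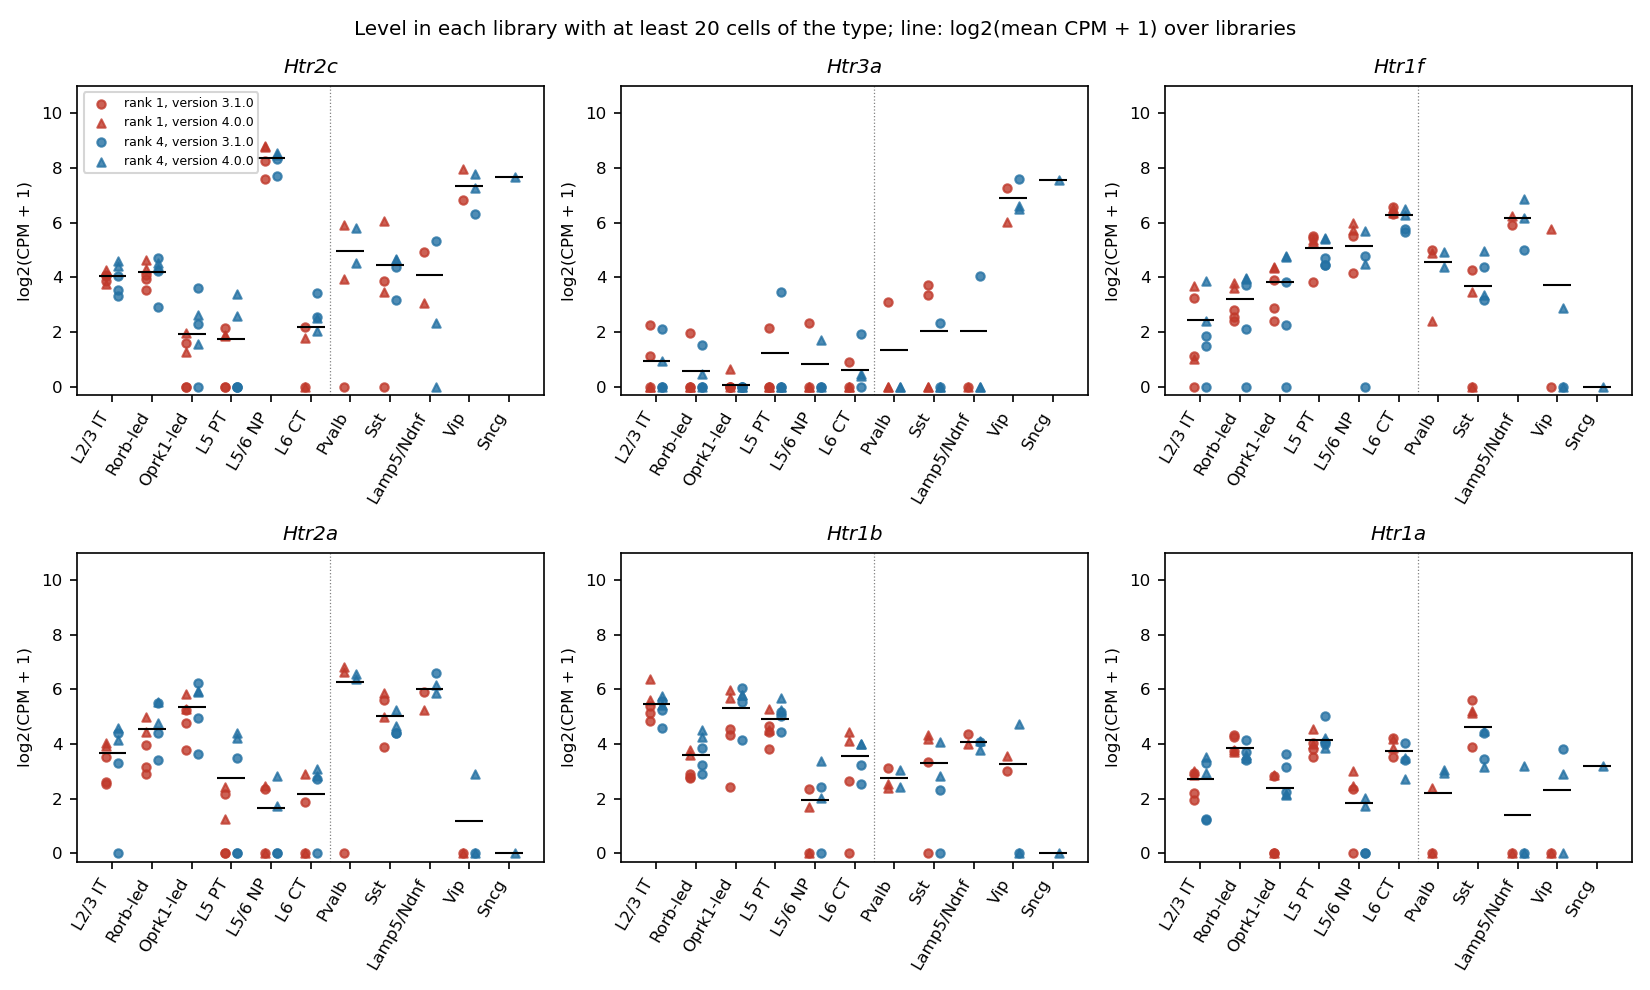
Level of 6 receptor genes in each library with at least 20 cells of the type, as log2(CPM + 1); colours give the rank, marker shapes the software version of the library's files, and lines log2(mean CPM + 1) over libraries. In L5/6 NP-like cells the 8 libraries lie between 195 and 447 CPM of Htr2c, with both ranks mixed.

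When the types of each gene were ordered by their mean level, no neighbouring pair passed the test: of 162 pairs, 0 passed an adjusted p of 0.05 (0.0%) by an exact two-sided paired sign-flip test over libraries, and 3 had an unadjusted p below 0.05. With 5 shared libraries that test cannot go below 0.0625 and with 10 not below 0.00195, and after adjustment over 162 pairs no pair could have passed by itself. The count of 0 was thus nearly fixed by the design and does not show that neighbours were equal.

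Larger contrasts were then tested with edgeR's quasi-likelihood test, each type against the mean of the other types of its family with the library as a block. This test was chosen after the levels had been seen, and Benjamini-Hochberg adjustment ran over all genes. Over the 6 excitatory types, 47.7% of all genes passed in L2/3 IT-like, 30.4% in L5/6 NP-like, 38.0% in L5 PT-like, 31.4% in L6 CT-like, 28.2% in Oprk1-led and 32.9% in Rorb-led cells. The filter on low counts was passed by 5 members in excitatory neurons, Htr1a, Htr1b, Htr1f, Htr2a and Htr2c. Of their 30 tests, 26 passed, 14 higher and 12 lower (86.7%), where 34.7% of all tests over 10057 genes did. A sparse gene passes the filter mainly through the types where it is high, so that count does not describe all 9 receptors. The 6 contrasts of a gene also depend on each other, since a type that stands out enters the mean for each of the others.

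The largest excitatory contrast was Htr2c in L5/6 NP-like cells, at 5.63 ± 0.12 on the log2 scale (SE, with an edgeR adjusted p of 5.2e-60). Htr2c was also higher in Rorb-led (0.76 ± 0.16) and L2/3 IT-like cells (0.53 ± 0.17) and lower in L5 PT-like (-2.17), L6 CT-like (-2.31) and Oprk1-led cells (-2.44), each set against a mean that includes L5/6 NP-like cells. Htr1f was higher in L6 CT-like (2.06 ± 0.10), L5/6 NP-like (0.91 ± 0.20) and L5 PT-like cells (0.84 ± 0.15) and lower in L2/3 IT-like (-2.20) and Rorb-led cells (-1.30). Htr2a was higher in Oprk1-led (2.57 ± 0.14) and Rorb-led cells (1.48 ± 0.16) and lower in L5/6 NP-like (-2.48) and L6 CT-like cells (-1.42). Htr1b was higher in Oprk1-led (1.66 ± 0.15), L2/3 IT-like (1.53 ± 0.14) and L5 PT-like cells (0.85 ± 0.19), and lower in L5/6 NP-like (-2.80), Rorb-led (-0.68) and L6 CT-like cells (-0.55). Htr1a had the smallest range, from 1.24 ± 0.24 in L5 PT-like to -1.42 ± 0.49 in L5/6 NP-like cells.

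The 4 tests that did not pass were Htr2a in L2/3 IT-like (0.41 ± 0.18) and L5 PT-like cells (-0.56 ± 0.29), Htr1a in L2/3 IT-like cells (-0.48 ± 0.25) and Htr1f in Oprk1-led cells (-0.31 ± 0.16). Several calls near the threshold changed with 1 library left out, while the direction stayed the same in each. Without rank 4 replicate 5 the call was lost for Htr2c in L2/3 IT-like cells (0.42), for Htr1b in Rorb-led cells (-0.64) and for Htr1b in L6 CT-like cells (-0.42). The last was lost too without rank 1 replicate 1 (-0.49) or rank 4 replicate 4 (-0.56), and Htr1a in Oprk1-led cells without rank 4 replicate 4 (-0.78). In the other direction, Htr2a in L2/3 IT-like cells passed without rank 4 replicate 2 (0.44), 4 (0.51) or 5 (0.48), Htr2a in L5 PT-like cells without rank 4 replicate 5 (-0.91), and Htr1a in L2/3 IT-like (-0.72) and Htr1f in Oprk1-led cells (-0.45) without rank 4 replicate 4. DESeq2 did not call Htr2c in L2/3 IT-like cells (0.54), and a stricter set of cells (at least 1000 genes, at most 10% mitochondrial UMIs) did not give the call of Htr1b in L6 CT-like (-0.46) or Rorb-led cells (-0.69).

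**Figure D3:**
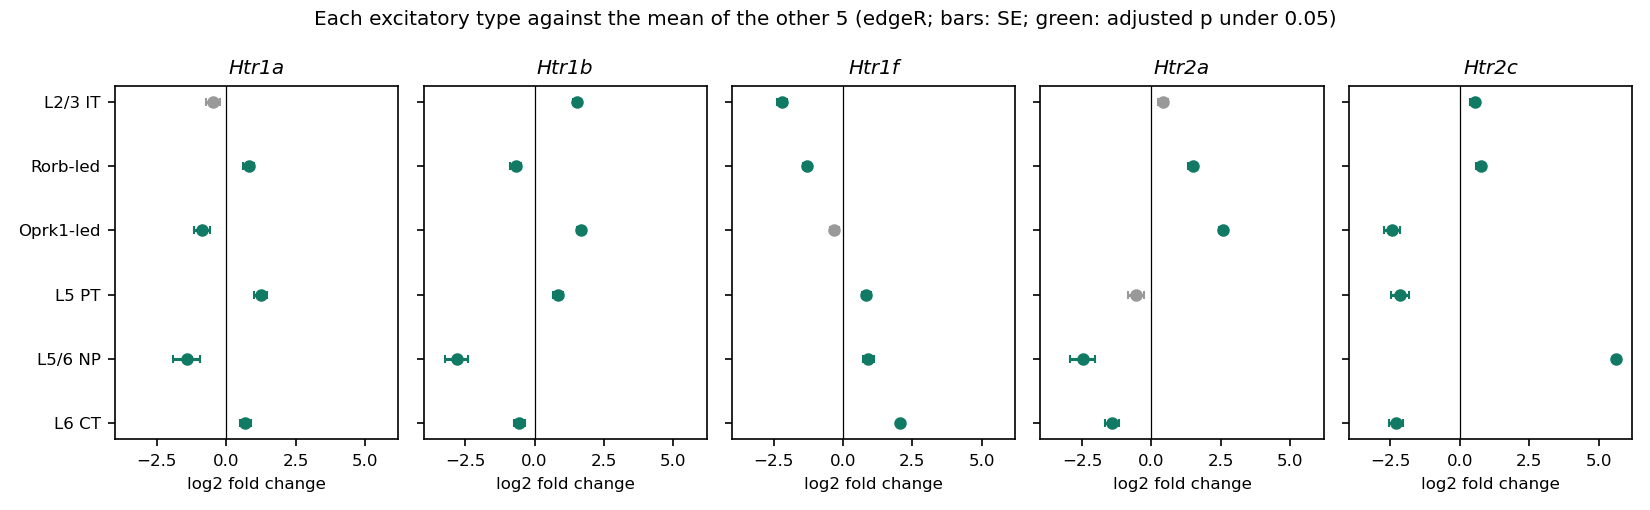
log2 fold change of 5 receptor genes in each excitatory type against the mean of the other 5 types (edgeR, bars show SE, green marks an adjusted p under 0.05). Htr2c is set apart by 1 type, L5/6 NP-like, at 5.63, while Htr2a and Htr1b share their high value in Oprk1-led cells (2.57 and 1.66).

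In inhibitory neurons 3 members passed the filter, and 6 of their 12 tests passed (50.0%) beside 23.6% over all genes (23.4% in Lamp5/Ndnf-like, 30.1% in Pvalb-like, 22.0% in Sst-like and 18.9% in Vip-like cells). Htr3a had a mean of at most 3.15 CPM in Sst-, Lamp5/Ndnf- and Pvalb-like cells and entered the test through Vip-like cells, so this count, too, describes no more than the members that passed the filter. Htr3a (5.51 ± 0.47) and Htr2c (2.75 ± 0.30) were higher in Vip-like cells, and Htr2a was lower there (-4.50 ± 0.76). Htr2a was higher in Pvalb-like (2.28 ± 0.35) and Lamp5/Ndnf-like cells (1.82 ± 0.42). Htr2c was lower in Lamp5/Ndnf-like cells (-2.03 ± 0.46), and its value of -0.09 ± 0.39 in Pvalb-like cells did not pass. Once libraries with at least 5 cells entered, so that Sncg-like cells could be tested and joined the mean of the other types, Htr2c passed as lower in Pvalb-like (-0.93 ± 0.32) and Sst-like cells (-1.56 ± 0.30), and so did Htr3a (-4.02 ± 0.70 and -3.51 ± 0.94). The Vip-like values were then 3.84 for Htr3a and 1.99 for Htr2c. In Sncg-like cells Htr3a was higher by 5.54 ± 0.24 and Htr2c by 2.62 ± 0.28. Of 2655 genes, 419 passed in Sncg-like cells, and over all 5 inhibitory types 28.8% of tests did.

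The sparser members could be tested with no filter on low counts, where 31 of 54 excitatory tests passed beside 18.0% over all genes, 8 of 36 inhibitory tests beside 7.43% and 5 of 72 non-neuronal tests beside 24.2%. By type these shares of all genes were 25.3% in L2/3 IT-like, 15% in L5/6 NP-like, 18.9% in L5 PT-like, 17.4% in L6 CT-like, 14.3% in Oprk1-led and 17.0% in Rorb-led cells. They were 7.28% in Lamp5/Ndnf-like, 9.34% in Pvalb-like, 7.58% in Sst-like and 5.52% in Vip-like cells. Htr4 was higher in L5/6 NP-like (4.26 ± 0.42) and L5 PT-like cells (2.69 ± 0.41), Htr7 in L6 CT-like cells (2.91 ± 0.39) and Htr5a in Rorb-led cells (0.81 ± 0.18), while Htr4 was lower in Oprk1-led cells (-2.87 ± 0.80). In inhibitory neurons Htr1f was higher in Lamp5/Ndnf-like (2.42 ± 0.30) and Htr1a in Sst-like cells (2.24 ± 0.45). Outside neurons no member passed the filter, with which 44.7% of all tests passed (astrocytes 57.9%, committed oligodendrocyte precursors 28.6%, endothelial cells 57.4%, microglia 49.9%, oligodendrocyte precursors 52.0%, oligodendrocytes 40.6%, pericytes 30.8%, smooth muscle cells 40.0%). Without it the shares were 35%, 14.6%, 30.5%, 28.3%, 30.7%, 20.5%, 15.1% and 19.1% in the same order. Unfiltered, Htr1b was higher in smooth muscle cells (2.68 ± 0.48, adjusted p = 5.2e-07, edgeR), Htr5a (1.94 ± 0.49) and Htr1f (1.23 ± 0.32) were higher and Htr1b lower (-1.04 ± 0.38) in oligodendrocyte precursors. Htr2c gave 1.06 ± 0.36 in astrocytes, against a mean that includes smooth muscle cells at 0. Its mean level over libraries was 4.26 CPM in astrocytes and 4.66 CPM in microglia, although microglia were higher in 1 of 10 libraries only (rank 4 replicate 4, 18.2 CPM from 3 counts).

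The share of cells with a UMI was compared after thinning each cell to 1000 UMIs. Htr2c was found in 27.2% ± 7.01 of L5/6 NP-like cells (SD, n = 7 libraries), against 0.458% ± 0.759 of microglia (n = 10), whose share stands for the background. Htr3a was found in 12.6% ± 3.98 of Vip-like cells (n = 5) against 0.194% of microglia, Htr1f in 7.34% ± 2.24 of L6 CT-like cells (n = 8) against 0.393%, and Htr2a in 7.33% ± 4.43 of Pvalb-like cells (n = 5) against 0.784%. Lower shares were those of Htr1b in L2/3 IT-like cells (4.22% ± 1.74, n = 10, against 0.546%), Htr1a in Sst-like cells (2.22% ± 1.47, n = 8, against 0.0837%) and Htr4 in L5/6 NP-like cells (1.63% ± 1.36, n = 7, against 0.0324%). Htr5a in Lamp5/Ndnf-like cells (1.25% ± 1.22, n = 5, against 0.0180%) and Htr7 in Sst-like cells (1.22% ± 0.674, n = 8, against 0.0321%) were the lowest of the 9. Erythroid barcodes, which should also lack these receptors, gave thinned shares of 0.404% ± 0.571 for Htr2c, 0.506% ± 0.600 for Htr2a and 1.06% ± 1.37 for Htr1f (n = 5). Their mean levels over 6 libraries were 13.7 CPM of Htr2c and 15.6 CPM of Htr2a, close to the 15.5 and 11.8 CPM of L2/3 IT-like cells, and 7.95 CPM of Htr1f. These means rest on 0 to 3 counts per library, with 60.4 CPM of Htr2c and of Htr2a in the 20 barcodes of rank 1 replicate 5, and pooled they were 6.26, 6.26 and 4.17 CPM. Thinning left out 118 of 860 L5/6 NP-like and 1095 of 3652 microglial cells, whose median depths were 2027 and 1280 UMIs, and the unthinned shares are given with the other settings below.

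Counted unthinned, 73.6% of Sncg-like cells had a UMI of at least 1 of the 9 receptors, against 52.0% of L5/6 NP-like, 51.9% of Vip-like and 17.5% of L2/3 IT-like cells, and 3.75% of astrocytes. Their median depths were 3005, 2027, 2060, 1480 and 1503 UMIs, so depth moves with part of this order. Of 121 Sncg-like cells, 56 had a UMI of Htr2c, 64 of Htr3a and 37 of both. Of 339 Vip-like cells, 83 had Htr2c, 84 had Htr3a and 15 had both. In the 1808 Oprk1-led cells, 303 had Htr1b, 320 had Htr2a and 88 had both.

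Over the 22 cell types, the genes whose mean level followed each receptor most closely were named by the Pearson correlation of log2(mean CPM + 1) among 13812 genes, leaving out markers and other Htr genes. These were Aldh1b1 for Htr1f (r = 0.91), Slit3, an axon guidance ligand, for Htr1b (0.87), and Hrh2, a histamine receptor, for Htr2c (0.83). Clnk stood first for Htr3a (0.92), Lmbrd2 for Htr5a (0.90), Trrap for Htr1a (0.85), Slc15a5 for Htr4 (0.78), Col19a1 for Htr7 (0.78) and Ypel5 for Htr2a (0.72). Among the next places were Gm42851 and Gm26691 for Htr1f, Tmem231 and Lpcat4 for Htr1b, Vstm2a and Plcxd2 for Htr2c, 5330429C05Rik and Mybpc1 for Htr3a, Zfp451 and Fto for Htr5a, Dvl1 and Vamp2 for Htr1a, Grm4 for Htr4, Ankrd55 and Gjd2 for Htr7, and Zfp804b for Htr2a. The types come from the same 10 libraries, but each mean used only libraries with at least 20 cells of the type. Sncg-like cells entered with 1 library (rank 4 replicate 5, 46 cells), and fibroblasts and perivascular macrophages with 2 each. Clnk, Hrh2, Vstm2a, Fto and Col19a1, like Htr3a and Htr7, had their highest mean in that Sncg-like library, so their values lean on it. The values are a description.

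The design compares dominant with subordinate mice, and no receptor gene passed the test between the ranks. In 28 tests (11 in whole classes, 17 in neuron types) covering every member but Htr4, 0 passed an adjusted p of 0.05 with edgeR, where 0.0% of all genes passed in each class and type, and 0 with DESeq2. Of the 28 tests, 3 had an unadjusted p below 0.05. The share of all genes below that p in these cells is not reported here, so this count is not read as a result. The fold changes were above 0 in 14 and below 0 in 14, with a median of 0.0034 (log2, rank 1 minus rank 4). A call that misses the threshold does not show equal levels: the standard errors ran from 0.16 for Htr2c in excitatory neurons to 0.47 for Htr1f in the same cells.

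The 3 lowest p-values belonged to Htr2a and Htr1b. Excitatory neurons of rank 1 held 11.8, 6.79, 6.16, 16.25 and 19.4 CPM of Htr2a in the 5 libraries, and those of rank 4 held 31.3, 5.56, 13.5, 28.3 and 24.1 CPM. Rank 4 was higher in 4 of the 5 same-numbered pairs, and the ranks overlapped. The log2 fold change was -0.80 ± 0.34 (adjusted p = 0.9999, edgeR), and the log2 ratio of means was -1.02 within the version 3.1.0 libraries and -0.55 within the version 4.0.0 libraries. Without rank 4 replicate 1 it was -0.39. In Rorb-led cells Htr2a gave -0.77 ± 0.34 (adjusted p = 0.967, edgeR), with -1.35 and -0.47 within the versions and -0.39 without rank 4 replicate 1. Htr1b in Rorb-led cells held 5.79, 6.38, 5.97, 11.19 and 12.7 CPM in rank 1 and 8.40, 6.44, 13.3, 21.9 and 18.2 CPM in rank 4. Rank 4 was higher in 5 of 5 pairs although the ranks overlapped, and the log2 fold change was -0.64 ± 0.25 (adjusted p = 0.940, edgeR), with -0.63 and -0.74 within the versions.

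With the filter on low counts, the receptors were tested between ranks in excitatory types and whole classes only. Of the inhibitory types, Sst-like cells alone had enough libraries of both ranks for a fit, and no receptor passed the filter there. Htr3a, Htr2a, Htr1a, Htr5a and Htr7 were thus not tested between ranks in the types where they were highest. Htr2c in L5/6 NP-like cells gave 0.16 ± 0.23, Htr1f in L6 CT-like cells gave 0.24 ± 0.17 and Htr3a in inhibitory neurons as a whole 0.18 ± 0.42, and none of these passed. With the replicate number as a block 0 of the 28 tests passed and 7 had an unadjusted p below 0.05. These were the 3 above, Htr1f (0.39) and Htr1a (0.37) in excitatory neurons, Htr1a in L6 CT-like cells (0.72) and Htr2c in inhibitory neurons (0.42). The lowest adjusted p with the block was 0.0604 for Htr2a in excitatory neurons (-0.73, edgeR). Over all genes that block gave 0.542% in excitatory and 0.11% in inhibitory neurons, 0.353% in L2/3 IT-like, 0.0509% in L5 PT-like, 0.455% in L5/6 NP-like, 0.83% in L6 CT-like, 0.213% in Oprk1-led and 0.906% in Rorb-led cells. It gave 0.0271% in oligodendrocyte precursors, 0.195% in smooth muscle cells and 0.0% in microglia, oligodendrocytes and pericytes. All these shares are for the adjusted p. The share of all genes below an unadjusted p of 0.05 in neurons is not reported here. The 7 of 28 tests thus have no such background and are not read as a result. Htr1a gave 0.34 ± 0.17 in excitatory neurons and 0.63 ± 0.32 in L6 CT-like cells (adjusted p = 0.9996, edgeR).

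**Figure D4:**
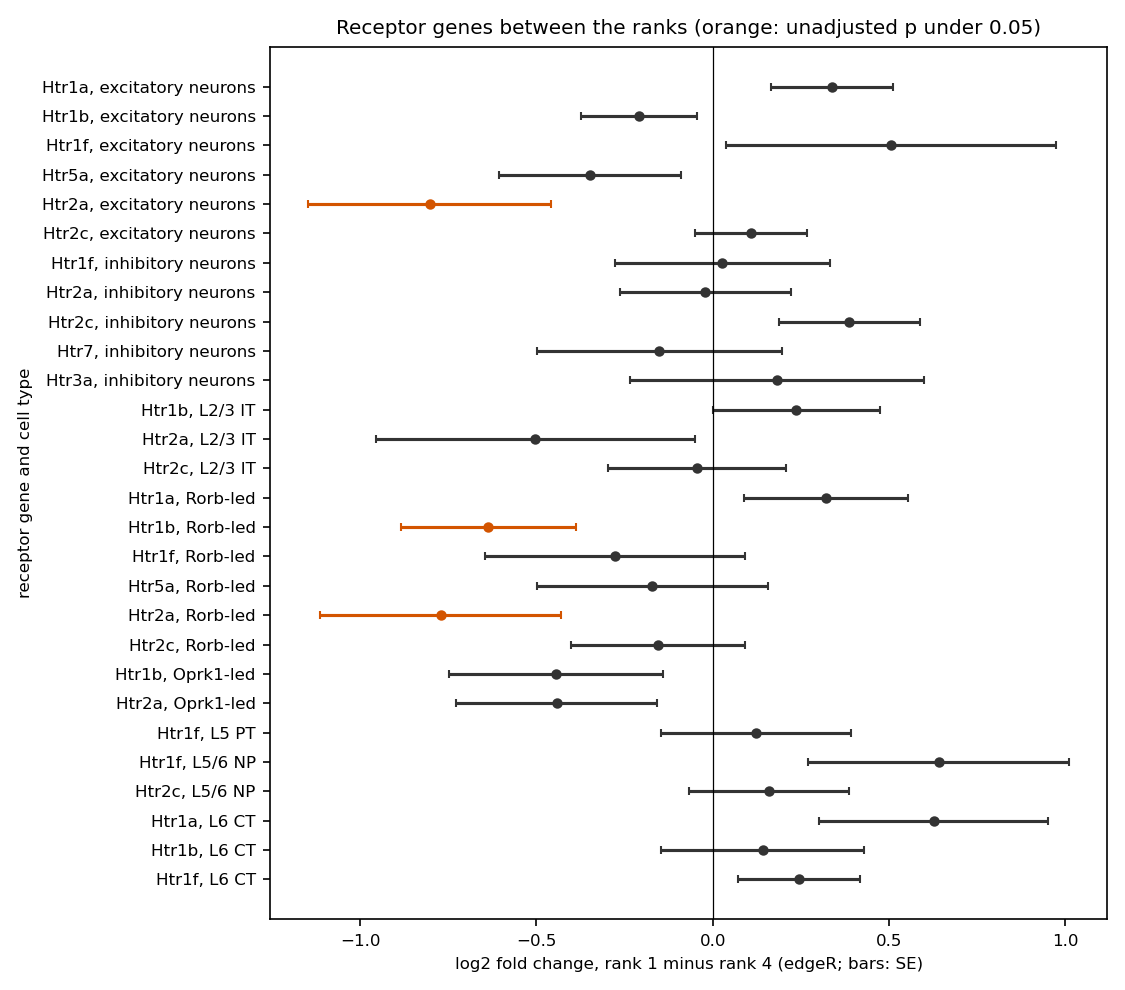
log2 fold change of the receptor genes, rank 1 minus rank 4, in each class and neuron type where a member passed the filter on low counts (28 tests, edgeR, bars show SE, orange marks an unadjusted p under 0.05). The values lie on both sides of 0, and the 3 orange points, Htr2a in excitatory neurons and Htr2a and Htr1b in Rorb-led cells, are below 0.

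Other genes of serotonin signalling were read from 6 lists of 50 genes chosen beside the members. In excitatory neurons 9 of 9 genes of Gi/o coupling, 8 of 9 of Gq coupling, 11 of 11 of Gs coupling, 7 of 7 receptor partners, 3 of 9 of synthesis, storage, uptake and breakdown, and 1 of 5 other receptor genes could be tested. None passed in any class, by edgeR or DESeq2. An unadjusted p below 0.05 was found for 1 Gi/o gene in excitatory neurons, for 1 gene each of the Gi/o, Gs and partner lists in inhibitory neurons and for 2 Gq genes in pericytes. With the replicate number as a block it was found for more: in astrocytes for 4 of 8 Gi/o, 3 of 9 Gq and 3 of 9 Gs genes, and in endothelial cells for 4 of 8, 2 of 9 and 3 of 8, where it had been 0 in each. Over all genes the block gave such a p for 1389 of 10692 in astrocytes and 888 of 8198 in endothelial cells, against 200 and 118 without it. For the other classes these counts over all genes are not reported here. The median log2 fold changes in excitatory neurons were -0.07, 0.02, 0.01, -0.01, 0.18 and 0.24 in that order, beside -0.0040 over all genes. Without the block, the Gi/o median was below 0 in each class. It was -0.48 in endothelial cells (7 of 8 genes below 0), -0.29 in astrocytes (5 of 8) and -0.21 in oligodendrocyte precursors (5 of 6). Over all genes the medians there were -0.0033, -0.019 and -0.017. The largest median above 0 among the coupling lists was 0.28, for Gq genes in oligodendrocytes (4 of 5 above 0). The lowest p of these lists in excitatory neurons belonged to Rgs4, a brake on Gi/o and Gq signalling, at -0.44 ± 0.19 (adjusted p = 0.9999, edgeR). With the replicate number as a block it passed, at -0.47 (adjusted p = 0.0312) in excitatory neurons, -0.80 (0.0244) in astrocytes, -0.89 (0.0160) in endothelial cells and -0.65 (0.000501) in Rorb-led cells, where 0.542%, 0.449%, 0.646% and 0.906% of all genes passed.

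By the rule for naming, the other genes were Gnao1 (-0.14) and Gnai3 (-0.21), G protein subunits of the Gi/o class, and Plcb4 (0.40), Gna11 (0.19) and Prkca (-0.23) of the Gq pathway. Adcy8 (0.22), Adcy5 (-0.09) and Pde4d (0.21) make or break down cyclic AMP. Ric3 (0.19), a chaperone of ligand-gated channels, Mpdz (0.15), a scaffold, and Arrb2 (-0.17), an arrestin, were the receptor partners. Maob (-0.32) and Maoa (0.18) break serotonin down and Slc29a4 (0.21) takes it up, and Htr6 gave 0.24. Htr6 itself stood at 3.50 CPM in Oprk1-led and 3.12 CPM in Rorb-led cells.

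The libraries carry 2 software versions in their file headers, 3.1.0 for replicates 1 to 3 and 4.0.0 for replicates 4 and 5 of both ranks. Of 11 tests in classes, 5 passed, 4 higher and 1 lower in 4.0.0 (45.5%), beside 52.2% of all genes in excitatory (25.0% higher, 27.3% lower) and 36.4% in inhibitory neurons (16.2% higher, 20.1% lower), so the receptors' count is near that background. The version and whatever else differed between these libraries cannot be told apart.

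The 1 lower gene was Htr3a. In inhibitory neurons the 6 libraries of version 3.1.0 held 105.5, 84.6, 276, 105.8, 365 and 49.2 CPM and the 4 of version 4.0.0 held 36.7, 14.9, 14.7 and 22.4 CPM, with no overlap. The log2 fold change was -2.84 ± 0.45 (adjusted p = 0.000197, edgeR), and 30 of 9109 genes (0.329%) changed more. In Vip-like cells the 3.1.0 libraries gave 155, 238, 772, 192, 1454 and 213 CPM and the 4.0.0 libraries 65.3, 64.8, 96.3 and 89.97 CPM, again without overlap. In Sncg-like cells the values were 673, 528, 1216, 585, 1425 and 415 against 547, 82.9, 215 and 187 CPM, and these overlapped. Vip-like cells made up 19.1% ± 3.97 (SD, n = 6) of inhibitory neurons in 3.1.0 and 13.4% ± 1.50 (n = 4) in 4.0.0, and Sncg-like cells 6.30% ± 1.22 and 4.77% ± 0.916. The part of these shares in the result was not tested. Htr2c in Vip-like cells overlapped between the versions, with 113, 212, 114, 79.6, 0 and 85.2 CPM in 3.1.0 and 229, 248, 220.1 and 154 CPM in 4.0.0. Gm32335, which overlaps Htr3a on the other strand, had 0 to 2 counts per library.

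**Figure D5:**
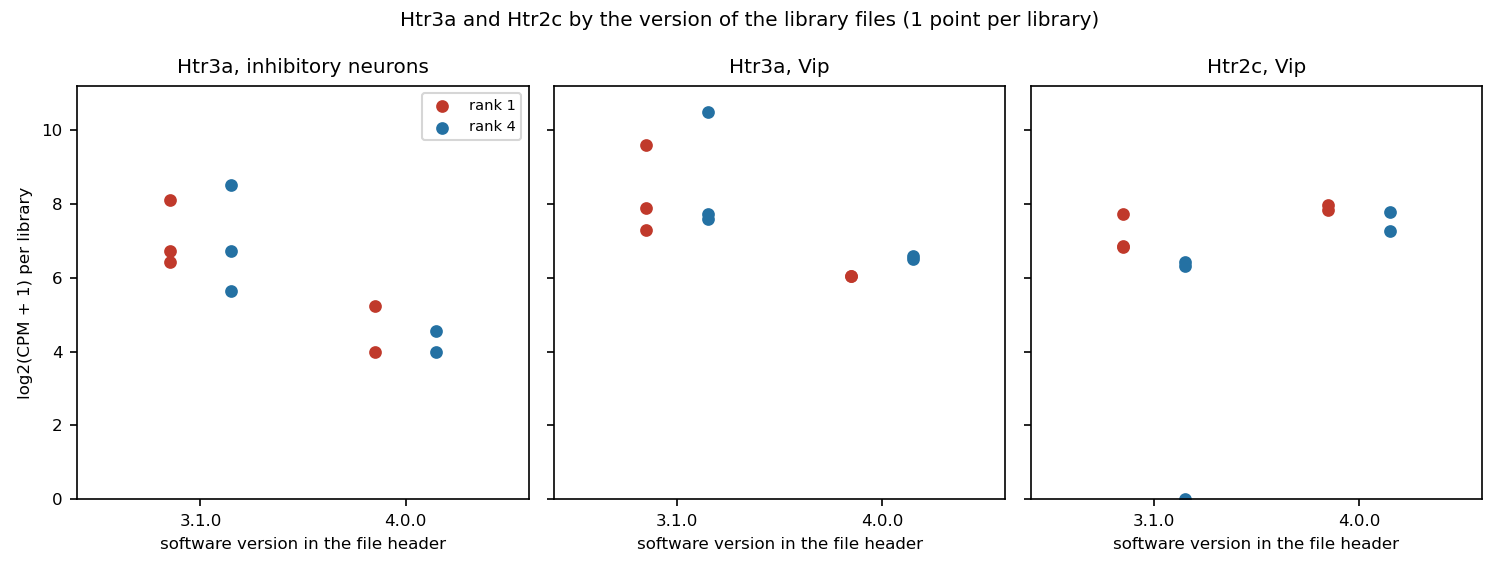
Htr3a in inhibitory neurons and in Vip-like cells and Htr2c in Vip-like cells, as log2(CPM + 1) in each library, by the software version in the file header; libraries have at least 20 inhibitory or 5 Vip-like cells. The 4 version 4.0.0 libraries lie below all 6 of version 3.1.0 for Htr3a (14.7 to 36.7 against 49.2 to 365 CPM in inhibitory neurons) and not for Htr2c.

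The 4 higher calls were Htr1f (1.38 ± 0.46), Htr1b (0.63 ± 0.16) and Htr2c (0.57 ± 0.16) in excitatory and Htr2a (0.70 ± 0.25) in inhibitory neurons. L6 CT-like cells, where Htr1f had its highest pooled level, were 9.36% ± 6.41 (SD, n = 6) of excitatory neurons in 3.1.0 and 27.2% ± 6.21 (n = 4) in 4.0.0, and within them Htr1f gave 0.26 ± 0.19, which did not pass. In Rorb-led cells Htr1f passed (1.12 ± 0.39). Htr1b passed within Rorb-led (1.07 ± 0.26), L6 CT-like (1.39 ± 0.40) and L2/3 IT-like cells (0.67 ± 0.23). The share of all genes passing between versions within these types is not reported here. In excitatory neurons as a whole that share was 52.2%, so these calls are not read as particular to the receptors. The call of Htr1f in excitatory neurons was lost with DESeq2 (1.50) and without rank 1 replicate 5 (1.42), rank 4 replicate 3 (1.30), rank 4 replicate 4 (1.36) or rank 4 replicate 5 (1.29). That of Htr1b in excitatory neurons was lost in the stricter cells (0.43). That of Htr2a was lost without rank 1 replicates 1 (0.48), 4 (0.68) or 5 (0.69) or rank 4 replicates 2 (0.68) or 4 (0.72). Calls were also gained in excitatory neurons: Htr5a (0.64) passed without rank 4 replicates 1 (0.76), 2 (0.73) or 4 (0.85), in the stricter cells (0.82) and with no filter (0.71). Htr2a (0.74) passed without rank 4 replicate 1 (1.18) and with no filter (0.80).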

How the data were processed

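Raw UMI counts per gene and barcode were deposited by the authors for 10 libraries. The submitters' processing notes name Cell Ranger 4.0.0 and mm10, while the file headers give software version 3.1.0 for replicates 1 to 3 and 4.0.0 for replicates 4 and 5. The 2 gene lists hold 31053 and 32285 genes, of which the 30406 shared ones were used. From 64937 barcodes, cells with at least 500 genes and at most 15% mitochondrial UMIs were kept, and 3095 doublets called by Scrublet (scanpy 1.11.5) were removed. In the 2 replicate 1 libraries fewer than 0.5% of barcodes were called, and a threshold of 0.247, the median over the remaining libraries, was set there. Cells were clustered (Leiden, resolution 1, 30 principal components, 15 neighbours, 14 Htr genes left out) and named by fixed markers.

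Counts were summed per library and type (at least 20 cells) and tested with edgeR 4.0.16 (quasi-likelihood, TMM, version as covariate, filterByExpr), with DESeq2 1.42.0 as an alternative, in R 4.3.3. Type contrasts, added after seeing the data, used the library as a block. All 9 members were named, with up to 3 similar genes each (some are not reported here) and, of each list, genes past the test or the 3 with the lowest p in excitatory neurons. Members and lists were chosen with earlier results of these data known. Same-numbered libraries deviated together from their group means in excitatory neurons and astrocytes (correlations 0.655 to 0.883, and 0.158 to 0.798 from the mean of their group and version), so a replicate block was also fitted. On simulated counts for excitatory neurons (12361 genes) 79.2% of 2-fold and 96.9% of 4-fold changes were recovered, and for L5/6 NP-like cells (5489 genes) 65.6% of 2-fold changes. The simulated counts held no version or replicate effect, and the changed genes were drawn at random from genes of all levels. These shares check the fit and do not give the power for the sparse receptors in the real libraries. Coordinates are those of GENCODE M21 on GRCm38. The libraries are separate pools of mice per the labels' protocols. P-values of the rank and version tests measure the spread between pools. Those of the type contrasts measure the scatter of type sums within libraries, shared over the types of a family. Several of these sums come from the same pool, so such p-values can be far smaller than the number of pools alone would allow.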

Additional observations from a re-analysis of the deposited data

Results flagged for a closer look

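Of 90 groups of 4 or 5 libraries examined, 4 held a library set apart from the rest by Dixon's ratio of gap to range, where chance alone marks about 1 group in 20. Htr1a in L5 PT-like cells of rank 4 was highest in replicate 2 at 31.18 CPM, from 3 counts in 21 cells, with the nearest library at 17.7 CPM. Htr1f in L5 PT-like cells of rank 1 was lowest in replicate 2 at 13.17 CPM, from 3 counts in 51 cells, with the nearest at 38.7 CPM. Htr3a in Sst-like cells of rank 4 was highest in replicate 1 at 4.011 CPM, from 1 count, while the other libraries had none. Htr3a in inhibitory neurons of rank 4 was highest in replicate 2 at 365.2 CPM, from 44 counts in 42 cells, with the nearest at 105.8 CPM.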

How the results depend on the processing

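The 28 rank tests of the receptors had 487 alternative values, of which 461 kept their direction and none passed an adjusted p of 0.05 (edgeR or DESeq2). The count of receptor calls between ranks was 0 with each library left out. Directions of small rank differences turned in 26. They were 0.18 for Htr2a, -0.069 for Htr1f in inhibitory neurons, 0.23 for Htr2c in L2/3 IT-like and -0.16 for Htr1f in L5 PT-like cells in the stricter cell subset (at least 1000 genes, at most 10% mitochondrial UMIs), -0.065 for Htr3a and -0.020 for Htr1f in inhibitory neurons without the top 5% of UMIs, -0.00733 for Htr1f in inhibitory neurons, rank 1 minus rank 4, with no covariate, 0.16 for Htr2c in L2/3 IT-like cells at resolution 2, and -0.0013 for Htr1f in L5 PT-like cells with at least 50 cells. With 1 library left out, the ranges that crossed 0 were -0.11 to 0.17 for Htr2a, -0.15 to 0.66 for Htr3a, -0.23 to 0.32 for Htr1f and -0.38 to 0.037 for Htr7 in inhibitory neurons, -0.16 to 0.11 for Htr2c and -0.0027 to 0.37 for Htr1b in L2/3 IT-like, -0.0016 to 0.25 for Htr1b in L6 CT-like, and -0.27 to 0.050 for Htr2c, -0.57 to 0.047 for Htr5a and -0.43 to 0.023 for Htr1f in Rorb-led cells. The replicate block raised the calls of the listed pathway genes in classes from 0 to 3 (Rgs4 in 3 classes) and changed no other call of the receptors.

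Of the 11 version differences, 132 of 153 alternative values were unchanged in call and direction. Htr3a in inhibitory neurons passed in all of them. The calls were 5 of 11 tests and, with no filter, 13 of 75, a smaller share (7274 of 21405 genes passed in excitatory and 3848 of 18149 in inhibitory neurons). They ranged from 3 to 7 with a library left out, 3 being without rank 1 replicate 5. Htr7 in inhibitory neurons ranged from -0.16 to 0.19. Of the 42 type contrasts, 598 of 626 alternative values were unchanged, 9 lost and 13 gained a call. Inhibitory calls fell from 6 of 12 to 2 of 4 tests in the stricter subset, and non-neuronal calls rose from 0 to 5 with no filter, since no receptor passed it. Htr2c in Pvalb-like cells turned to 0.84 in the stricter subset and 0.42 at resolution 2, with -0.69 to 0.16 with a library left out, and passed at -0.93 with at least 5 cells per library; Htr2a in Sst-like cells turned to -0.086 at resolution 2, with -0.010 to 1.07. With at least 50 cells per library no inhibitory type contrast could be fitted. The cause of these shifts was not tested.

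Shares of cells with a UMI moved with depth by construction. With 2000 UMIs per cell they were 4.18% for Htr1a in Sst-like, 8.27% for Htr1b in L2/3 IT-like, 14.25% for Htr1f in L6 CT-like, 12.8% for Htr2a in Pvalb-like, 44.6% for Htr2c and 3.72% for Htr4 in L5/6 NP-like, 16.7% for Htr3a in Vip-like, 3.61% for Htr5a in Lamp5/Ndnf-like and 2.60% for Htr7 in Sst-like cells. Unthinned they were 9.10%, 10.96%, 26.3%, 27.1%, 49.5%, 4.84%, 23.5%, 5.04% and 5.81% in the same order. Htr4 and Htr7 have the fewest UMIs (113 and 229).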

Other observations

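Clusters that reached no type name also held receptor transcripts. The 535 inhibitory neurons without a type had 51.7 CPM of Htr2c, 42.2 CPM of Htr1f, 42.2 CPM of Htr3a and 26.7 CPM of Htr2a over their pooled UMIs. The 1466 excitatory neurons without a type had 24.6 CPM of Htr2a, 18.8 CPM of Htr1b and 14.4 CPM of Htr1f. These cells entered the tests of whole classes and no test of a type.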
